A study of Homo sapiens with 8 samples.

Results

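SWI/SNF complexes were described through the RNA levels of 30 genes that encode their subunits, in 8 human cancer cell lines selected for ERBB4 expression. The genes were taken by symbol from a list of complex members, and all 30 were found among 58202 gene identifiers. The list and its emphasis on subunits low in single lines were chosen from measured FPKM values of these same lines, so single-line levels and paralog ratios are given as descriptions, with no test. FPKM, the deposited unit, is a fragment count divided by transcript length and by the mapped fragments of the library, which makes levels of different genes comparable per length.

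Each line had 1 library, made from cells cultured in plates for 48 hours without any stated drug. The lung lines were derived from a large cell carcinoma (H661), a small cell tumour (H146) and a non-small cell tumour (H522). KLE and HEC59 were the endometrial lines, from an adenocarcinoma and a carcinoma. H716 came from a colorectal adenocarcinoma of the cecum, 1321N1 from a brain astrocytoma, and COV318 from a serous ovarian carcinoma. The study set 4 lines that respond to ibrutinib, a covalent inhibitor of the BTK kinase, against 4 that do not, but the labels used here do not say which lines are which, and that comparison was not made. A line is an established culture of a single tumour, and differences between lines of a tissue are differences between tumours.

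SWI/SNF complexes use the energy of ATP to slide and evict nucleosomes. The motor is either SMARCA4 (BRG1) or SMARCA2 (BRM). In the canonical BAF and PBAF assemblies it joins a core of SMARCC, SMARCD, SMARCB1 and SMARCE1 proteins and the actin-like ACTL6A. Canonical BAF is defined by ARID1A or ARID1B with a DPF protein, PBAF by ARID2, PBRM1, BRD7 and PHF10, and non-canonical BAF by BRD9 with GLTSCR1 or GLTSCR1L. During neuronal differentiation, ACTL6A, PHF10 and SS18 give way to ACTL6B, DPF1 or DPF3, and SS18L1. Loss of SMARCA4 occurs in a subset of lung cancers and loss of ARID1A is frequent in endometrial and ovarian cancers.

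The promoter windows of both ATPase genes, of ACTL6B and of BCL11A are shown because these 4 genes were low or high in single lines, by the measure given with their values. The sequences are those of RefSeq on GRCh38.p14, from 250 bases before to 50 bases after the most upstream listed start, 5′ to 3′ on the strand of the gene, with each CpG dinucleotide in capitals. The SMARCA4 window lies at chr19:10960780-10961079 (plus strand), the SMARCA2 window at chr9:2015097-2015396 (plus strand), the ACTL6B window at chr7:100656399-100656698 (minus strand) and the BCL11A window at chr2:60553875-60554174 (minus strand).
SMARCA4: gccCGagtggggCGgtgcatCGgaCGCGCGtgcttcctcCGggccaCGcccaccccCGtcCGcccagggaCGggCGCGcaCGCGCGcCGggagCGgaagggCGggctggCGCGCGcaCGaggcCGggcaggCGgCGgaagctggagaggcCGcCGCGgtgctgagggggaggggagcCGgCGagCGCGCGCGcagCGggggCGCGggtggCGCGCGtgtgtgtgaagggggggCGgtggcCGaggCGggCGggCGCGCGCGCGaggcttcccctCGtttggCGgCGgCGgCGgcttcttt
SMARCA2: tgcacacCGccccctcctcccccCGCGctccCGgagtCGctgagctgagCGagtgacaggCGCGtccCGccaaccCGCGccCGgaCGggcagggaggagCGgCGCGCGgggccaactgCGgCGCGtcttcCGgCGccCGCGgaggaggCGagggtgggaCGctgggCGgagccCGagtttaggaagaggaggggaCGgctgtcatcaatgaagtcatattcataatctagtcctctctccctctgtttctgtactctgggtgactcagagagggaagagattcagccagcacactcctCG
ACTL6B: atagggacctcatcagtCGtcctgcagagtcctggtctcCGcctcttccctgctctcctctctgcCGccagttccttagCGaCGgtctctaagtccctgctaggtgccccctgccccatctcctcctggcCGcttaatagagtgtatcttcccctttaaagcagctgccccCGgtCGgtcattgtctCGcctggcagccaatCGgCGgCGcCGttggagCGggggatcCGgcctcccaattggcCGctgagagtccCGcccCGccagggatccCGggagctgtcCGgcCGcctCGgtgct
BCL11A: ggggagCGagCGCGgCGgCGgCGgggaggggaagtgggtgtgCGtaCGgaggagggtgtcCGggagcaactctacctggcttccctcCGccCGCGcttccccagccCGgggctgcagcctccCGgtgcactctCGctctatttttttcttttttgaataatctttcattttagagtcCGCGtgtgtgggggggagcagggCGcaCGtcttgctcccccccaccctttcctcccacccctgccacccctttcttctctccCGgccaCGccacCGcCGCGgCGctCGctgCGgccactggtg
These windows held 55 CpG dinucleotides in SMARCA4, 30 in SMARCA2, 22 in ACTL6B and 27 in BCL11A. The observed over expected CpG ratio was 1.17 in SMARCA4, 0.901 in SMARCA2, 0.715 in ACTL6B and 0.805 in BCL11A. Of 26 members with a window in the table, 24 had a ratio of 0.6 or more, beside 48.8% of all 27305 genes with a window. The E-box letters CAGCTG, read on both strands, occurred in 4 of the 26 windows (ARID1A, BCL7A, ACTL6B and GLTSCR1L) and in 17.7% of all windows. The letters TTCAGCACC, from the RE1 element that REST binds, likewise read on both strands, occurred in none of the 26 and in 0.396% of all windows. No methylation or binding was measured, and the windows are shown for orientation only. SMARCC1, SMARCC2, ARID2 and ACTL6A had no entry.

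Per library, 12205 to 13300 genes reached an FPKM of 1. Their absolute depth is unknown, but the steps between low values gave a relative depth of 1 in KLE, the shallowest, to 2.67 in 1321N1. The steps also separated H522, H661, KLE and H716 from 1321N1, HEC59, COV318 and H146, and the labels name no batch. Markers fixed for the labelled tissues were uneven. NKX2-1, a lung lineage factor, was at 11.2 in H661, 0.0204 in H522 and 0.0167 in H146, and SFTPB, SFTPC and SCGB1A1 were listed at 0 in all 3 lung lines. Neuroendocrine markers were high in H146 and H716. PAX8, SOX17 and EMX2 were highest in KLE, HEC59 and COV318. MUC16 was at 8.18 in KLE and 2.97 in HEC59 but 0.111 in COV318. WT1, listed for serous ovarian tumours, was at 5.47 in COV318, 28.7 in KLE, 12.4 in H522 and at most 1.93 in the rest. In H716 the intestinal markers were at 137 for CDH17, 1.31 for CDX2, 1.07 for VIL1 and 0.376 for LGALS4. VIL1 was higher in H146, at 8.74, and LGALS4 in KLE, at 0.443. In 1321N1 GFAP was at 3.10 with S100B, OLIG1 and AQP4 listed at 0. Because each sample is a bulk culture, fewer cells expressing a gene and less RNA per cell cannot be told apart.

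Most SWI/SNF subunits were expressed in every line. Of the 30 genes, 22 reached an FPKM of 1 in all 8 lines, 6 in some lines (SMARCA2, SMARCD3, ACTL6B, DPF1, GLTSCR1 and BCL11A) and 2 in none (DPF3 and BCL11B). In 18 genes the highest level was under 5 times the lowest. The most abundant member was ACTL6A in H661, KLE, H716 and COV318, SMARCE1 in H522 and HEC59, SMARCC1 in 1321N1, and SMARCA4 in H146, where it stood at 106. The filter used below, which asks that 2 lines or more reach an FPKM of 1, was passed by 28 members and by 15650 identifiers in all. Over the 28 members past the filter the median SD across lines was 0.55 on the log2(FPKM + 1) scale, and 0.54 over all 30. It was 0.67 over the identifiers past the filter, which are not matched to the members in level.

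**Figure D1:**
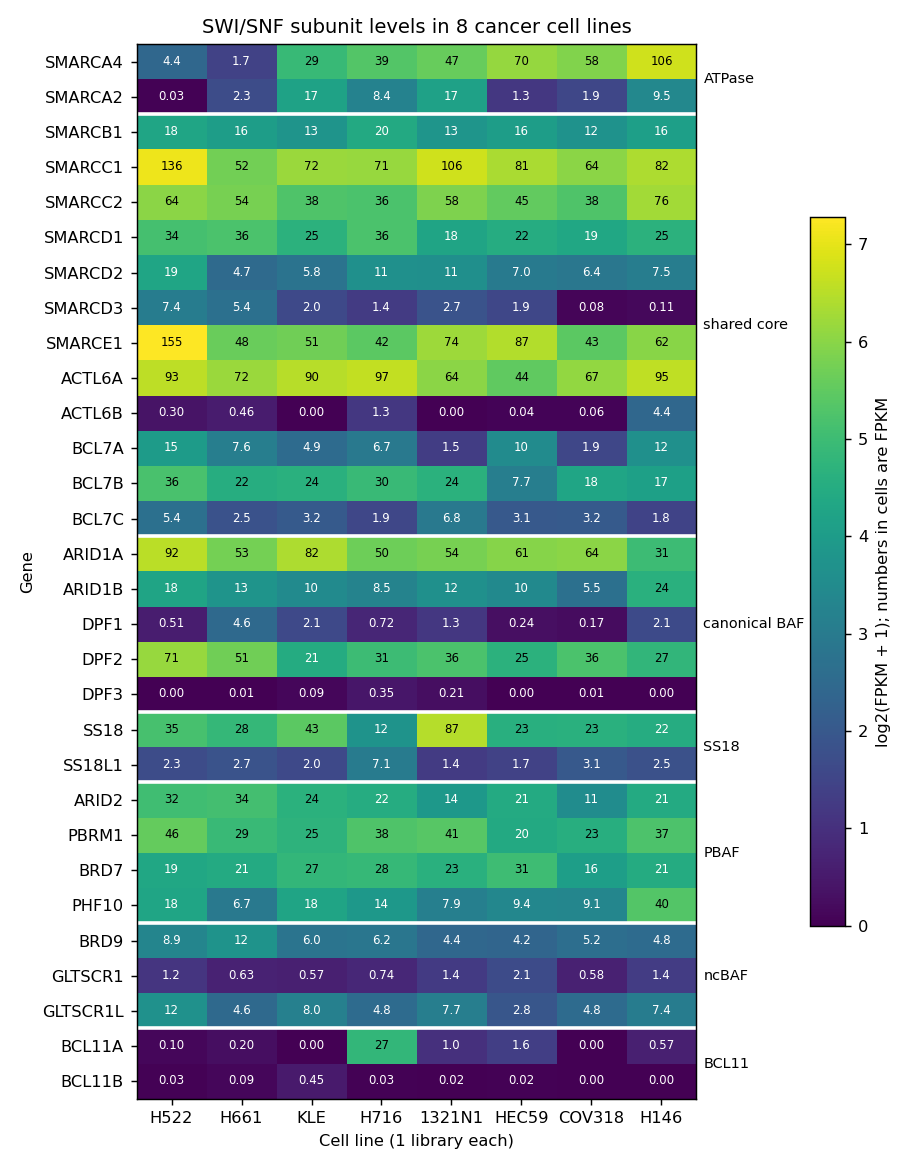
Levels of the 30 SWI/SNF genes (rows, grouped by the assembly they belong to) in the 8 lines (columns), coloured by log2(FPKM + 1) with the FPKM written in each cell. The group labelled shared core holds genes of canonical BAF and PBAF, not all of which are used by non-canonical BAF. SMARCA4 is at 4.44 in H522 and 1.68 in H661 and at 28.9 or more in the other 6 lines, while SMARCB1 stays between 12.1 and 20.3.

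The ATPase genes varied most among the members that every complex needs. SMARCA4 (ENSG00000127616) had an FPKM of 4.44 in H522 and 1.68 in H661, against 28.9 in KLE, 39.1 in H716, 47.0 in 1321N1, 58.3 in COV318, 69.5 in HEC59 and 106 in H146. H522 and H661, both from lung cancers other than small cell, had the lowest values, and the small cell lung line had the highest. This pairing was picked from the same values. H661 was 27.9-fold below the median FPKM of its 7 counterparts and H522 10.6-fold below the median of its own. On the log2(FPKM + 1) scale the differences were -4.16 and -3.14. H522 and H661 share their read steps with KLE and H716, and within those 4 lines the levels were 4.44 and 1.68 against 28.9 and 39.1.

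SMARCA2 (ENSG00000080503), the alternative motor, followed another order. The levels were 17.3 (KLE), 17.1 (1321N1), 9.50 (H146) and 8.38 (H716) in the upper lines, and 2.26 (H661), 1.93 (COV318), 1.25 (HEC59) and 0.0282 (H522) in the lower ones. The upper 4 lines and the lower 4 were separated by a gap between 2.26 and 8.38. H522 had the lowest SMARCA2 level together with the second lowest SMARCA4 level. Its library was second in relative depth after that of 1321N1, and the part of depth in these levels was not tested. HEC59 and COV318 were low in SMARCA2 with SMARCA4 at 69.5 and 58.3.

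Summed over both genes, ATPase FPKM was 4.47 in H522 and 3.95 in H661, against 46.2 to 116 in the other 6 lines. The sum of the scaffold genes SMARCC1 and SMARCC2, which hold the core together, was 199.9 in H522 and 106 in H661, against 102 to 164 elsewhere. The ATPase sum was thus 2.24% of the scaffold sum in H522 and 3.72% in H661, against 39.0% in 1321N1, 41.7% in KLE, 44.4% in H716, 56.2% in HEC59, 59.0% in COV318 and 72.9% in H146. SMARCA2 made up 57.3% of the ATPase sum in H661, the only line in which it exceeded SMARCA4, and 0.630% in H522. In the other lines its share was 37.4% in KLE, 26.6% in 1321N1, 17.7% in H716, 8.23% in H146, 3.20% in COV318 and 1.77% in HEC59. These are RNA ratios per transcript length, and protein was not measured.

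**Figure D2:**
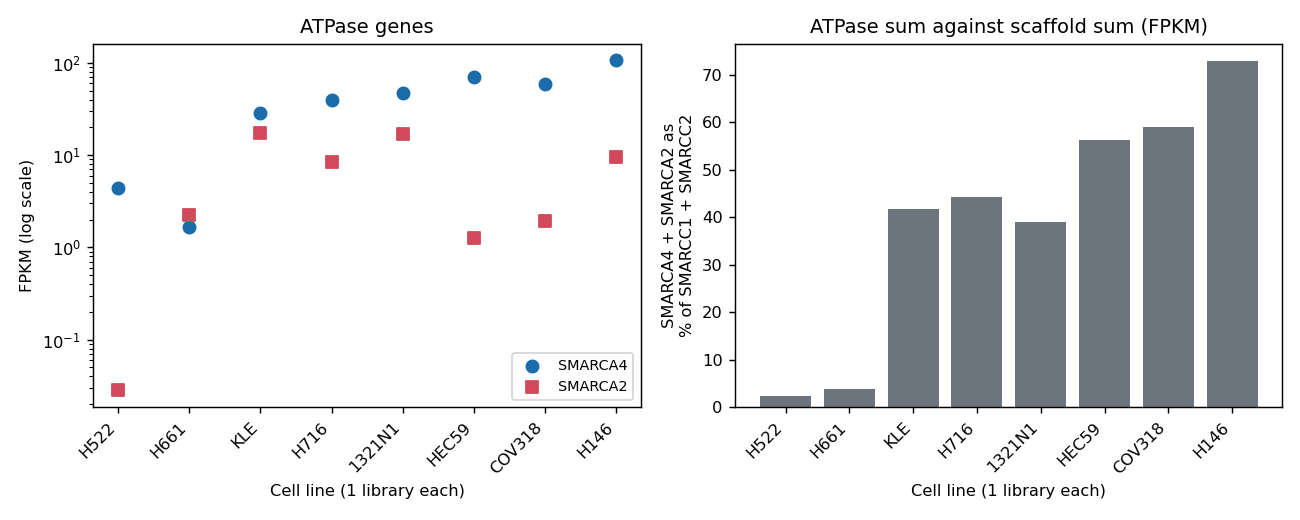
Left, FPKM of SMARCA4 (circles) and SMARCA2 (squares) in each line on a log axis. Right, the summed FPKM of both ATPase genes as a percentage of the summed FPKM of SMARCC1 and SMARCC2. H522 and H661 stand at 2.24% and 3.72%, and the other 6 lines at 39.0% or more.

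Across the 8 lines the genes most like SMARCA4 in level were TMEM260 (Pearson r = 0.966 on log2(FPKM + 1)), the identifier AC002075.4 (r = 0.952) and NDUFA3, a subunit of respiratory complex I (r = 0.950). TMEM260 was at 2.61 in H522 and 1.80 in H661, against 6.17 to 9.20 elsewhere. The nearest to SMARCA2 were LTBP3, which binds latent TGF-beta (r = 0.919), NSMF (r = 0.916) and the RNA SNHG11 (r = 0.915). SMARCA4 and SMARCA2 themselves had r = 0.463. These correlations rest on 8 lines of 1 library each, are the highest of 15650 identifiers, and are given as descriptions.

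Past the ATPases, few subunits stood far from the rest in any line. A member was counted as low or high in a line where its log2(FPKM + 1) differed by at least 2 from the median of the other 7 lines, a 4-fold change for well expressed genes. Of 240 gene-line pairs, 4 were low (1.67%), beside 2.36% of the pairs of all identifiers past the filter. Another 4 were high (1.67%), beside 4.17%. The 240 pairs include those of DPF3 and BCL11B, which did not pass the filter. The low pairs were SMARCA4 in H661, where 1.96% of identifiers were low, SMARCA4 and SMARCA2 in H522, where 2.86% were, and SMARCA2 in HEC59 (difference -2.06), where 2.63% were. The high pairs were BCL11A in H716 (4.56), ACTL6B in H146 (2.36) and SMARCA2 in KLE (2.49) and 1321N1 (2.47). The share of identifiers high in those lines was 4.76% in H716, 5.04% in H146, 4.72% in KLE and 4.89% in 1321N1. ACTL6B passed the filter only through H146 and H716, where it was highest, so its high call is not independent of the filter. Just inside the threshold lay SMARCA2 in HEC59, and just outside it PHF10 in H146 (1.97), SS18 in 1321N1 (1.85) and BCL7A in 1321N1 (-1.79). The SMARCA2 difference in H522 stayed past the threshold whichever line was left out (-3.27 to -2.43) and was -1.41 with a pseudocount of 5. The other SMARCA2 calls depended on which lines were present. Without H522, H661, HEC59 or COV318 the differences were 1.72 to 1.80 in KLE and 1.71 to 1.79 in 1321N1, and without KLE, H716, 1321N1 or H146 the difference in HEC59 was -1.38 to -1.30.

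**Figure D3:**
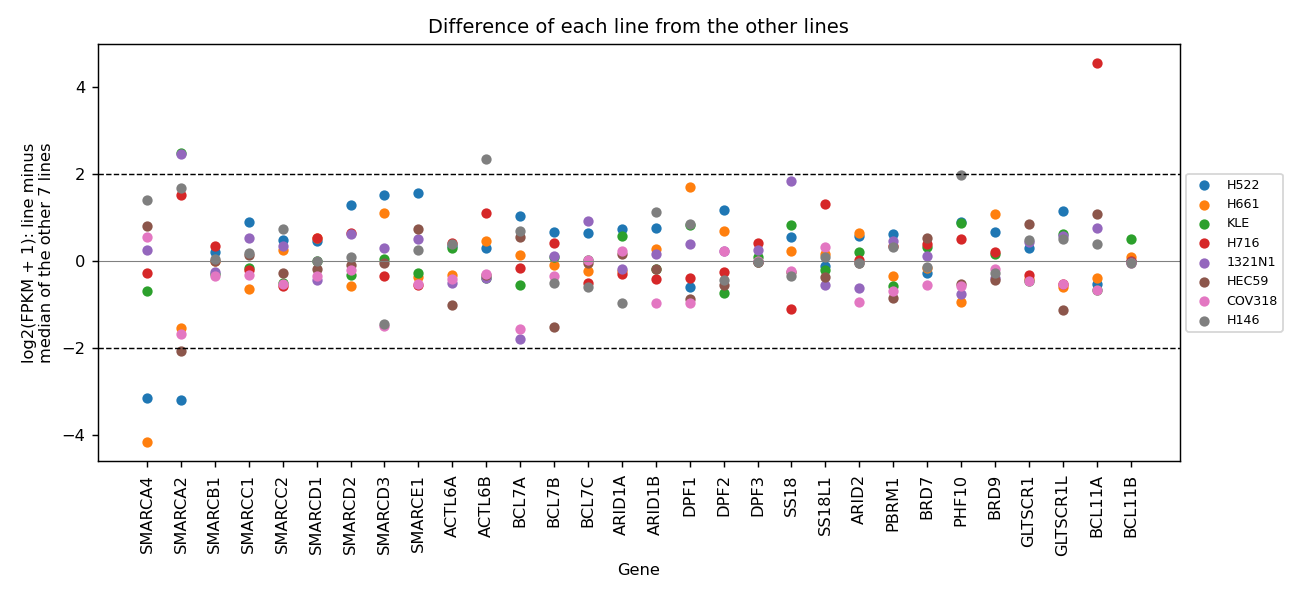
Difference in log2(FPKM + 1) of each line from the median of the other 7 lines (vertical axis) for the 30 genes (horizontal axis), with dashed lines at 2 and -2. The points past the dashed lines belong to SMARCA4, SMARCA2, ACTL6B and BCL11A.

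The remaining core subunits differed in how much they varied, with SMARCB1 the least variable and SMARCD3 the most. SMARCB1, the subunit lost in rhabdoid tumours, ranged from 12.1 in COV318 to 20.3 in H716. SMARCC1 ranged from 51.6 in H661 to 136 in H522, SMARCC2 from 36.2 in H716 to 76.2 in H146, and SMARCE1, a DNA-binding HMG protein, from 42.5 in H716 to 155 in H522. H522, low in both ATPases, thus had the highest levels of SMARCC1 and SMARCE1. SMARCD1 ranged from 18.0 to 36.4 and was the main member of its family, at 56.3% to 78.2% of the family sum. SMARCD2 ranged from 4.74 in H661 to 18.5 in H522. SMARCD3, a SMARCD paralog used in heart and other tissues, was at 7.39 in H522, 5.38 in H661, 1.41 to 2.66 in KLE, H716, 1321N1 and HEC59, 0.112 in H146 and 0.0811 in COV318. The lung lines therefore held both its highest values and its second lowest.

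ACTL6A and ACTL6B encode the actin-like subunit of dividing and of neuronal cells. ACTL6A was high throughout, from 44.1 in HEC59 to 96.8 in H716. ACTL6B (ENSG00000077080) was at 4.40 in H146, 1.29 in H716, 0.464 in H661 and 0.298 in H522, at 0.0555 in COV318 and 0.0409 in HEC59, and listed at 0 in KLE and 1321N1. Even in H146 it made up 4.42% of the ACTL6 sum, with ACTL6A at 95.3. The neuroendocrine markers CHGA, CHGB, SYP and INSM1 all reached an FPKM of 1 in H146 (4 of 4, summed FPKM 108) and in H716 (4 of 4, summed FPKM 82.9). In the other 6 lines at most 1 of these markers reached 1, and their sums were 0.258 to 3.44. The part of these cells' neuroendocrine state in the ACTL6B level was not tested.

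REST, the repressor of neuronal genes, was at 0.0375 in H146, against 22.9 to 53.6 in the other 7 lines (difference -5.19 on the log2 scale). Among the other regulators of the neuronal switch, PTBP1 was lowest in H146 at 76.3, against 144 to 254 elsewhere, and PTBP2, its neuronal paralog, was at 21.4 in H716 and 19.8 in H146, against 4.03 to 11.2 elsewhere. RCOR1, a REST corepressor, was at 6.94 in H146 and 8.08 in 1321N1, against 17.4 to 68.8 in the rest. The genes most like ACTL6B in level were LOC100507194 (r = 0.993), MYT1, a neural zinc finger factor (r = 0.992), and LOC102724392 (r = 0.990). MYT1 stood at 4.79 (H146) and 1.27 (H716), and did not exceed 0.501 elsewhere. These r rest on 8 points and are carried by H146 and H716.

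None of the other partners of the neuronal switch was highest in H146 and next highest in H716, as ACTL6B was. PHF10, the PBAF subunit of progenitor cells, was highest in H146 at 39.6, against 6.71 to 18.4 in the other lines. DPF1 was highest in H661 (4.64), with 2.13 in H146, 2.05 in KLE, 1.26 in 1321N1 and less than 1 elsewhere, and DPF3 did not exceed 0.346. SS18L1 was at 7.12 in H716, against 1.39 to 3.12 in the other lines, and SS18 was at 12.4 in H716, its lowest value, against 21.6 to 87.3. SS18L1 thus made up 36.6% of the SS18 sum in H716 and 1.56% to 11.7% elsewhere. Across lines SS18 and SS18L1 had r = -0.788 on the log2 scale, the most negative of the 20 paralog pairs compared.

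BCL11A, a zinc finger subunit of blood and brain, was at 27.2 in H716, 1.56 in HEC59 and 1.03 in 1321N1, and below 0.6 in the other 5 lines, with 0 listed in KLE and COV318. BCL11B, its paralog, did not exceed 0.453, in KLE. As a further description, a line was taken to stand apart when its gap to the nearest line as a share of the whole range exceeded Dixon's critical value for 8 values. Among the 28 members past the filter this held for BCL11A and SS18L1, both in H716, beside 8.12% of all identifiers.

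ARID1A and ARID1B, the DNA-binding subunits of canonical BAF, shifted in balance in H146. ARID1A was at 30.9 there, its lowest level, against 50.1 to 92.0 in the other lines. ARID1B was at 23.7 there, its highest, against 5.50 to 17.9. ARID1B made up 43.4% of the pair in H146, against 7.88% in COV318 to 19.3% in H661. In the endometrial and ovarian lines ARID1A RNA was at 82.3 in KLE, 61.4 in HEC59 and 64.4 in COV318, and RNA levels do not show mutations. DPF2, the main DPF protein, ranged from 21.4 in KLE to 71.0 in H522.

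Among the PBAF subunits PHF10 varied most. PBRM1 ranged from 20.4 in HEC59 to 46.2 in H522, BRD7 from 15.9 in COV318 to 31.5 in HEC59 and ARID2 from 10.7 in COV318 to 33.6 in H661. In non-canonical BAF, BRD9 ranged from 4.21 in HEC59 to 12.2 in H661. GLTSCR1L exceeded GLTSCR1 in all 8 lines, but in HEC59 the pair was near balance, at 2.15 for GLTSCR1, its highest level, and 2.83 for GLTSCR1L, its lowest. GLTSCR1 thus made up 43.2% of the pair in HEC59 and 6.64% to 16.4% elsewhere.

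HEC59 was also the line in which BCL7A exceeded BCL7B, at 10.4 and 7.65. BCL7 proteins are small subunits of every assembly, and BCL7B was the higher of this pair in the other 7 lines. BCL7B was at 16.5 to 35.6 in those lines. BCL7A was at 1.48 in 1321N1 and 1.91 in COV318, against 4.85 to 14.8 elsewhere. BCL7C ranged from 1.76 in H146 to 6.76 in 1321N1.

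**Figure D4:**
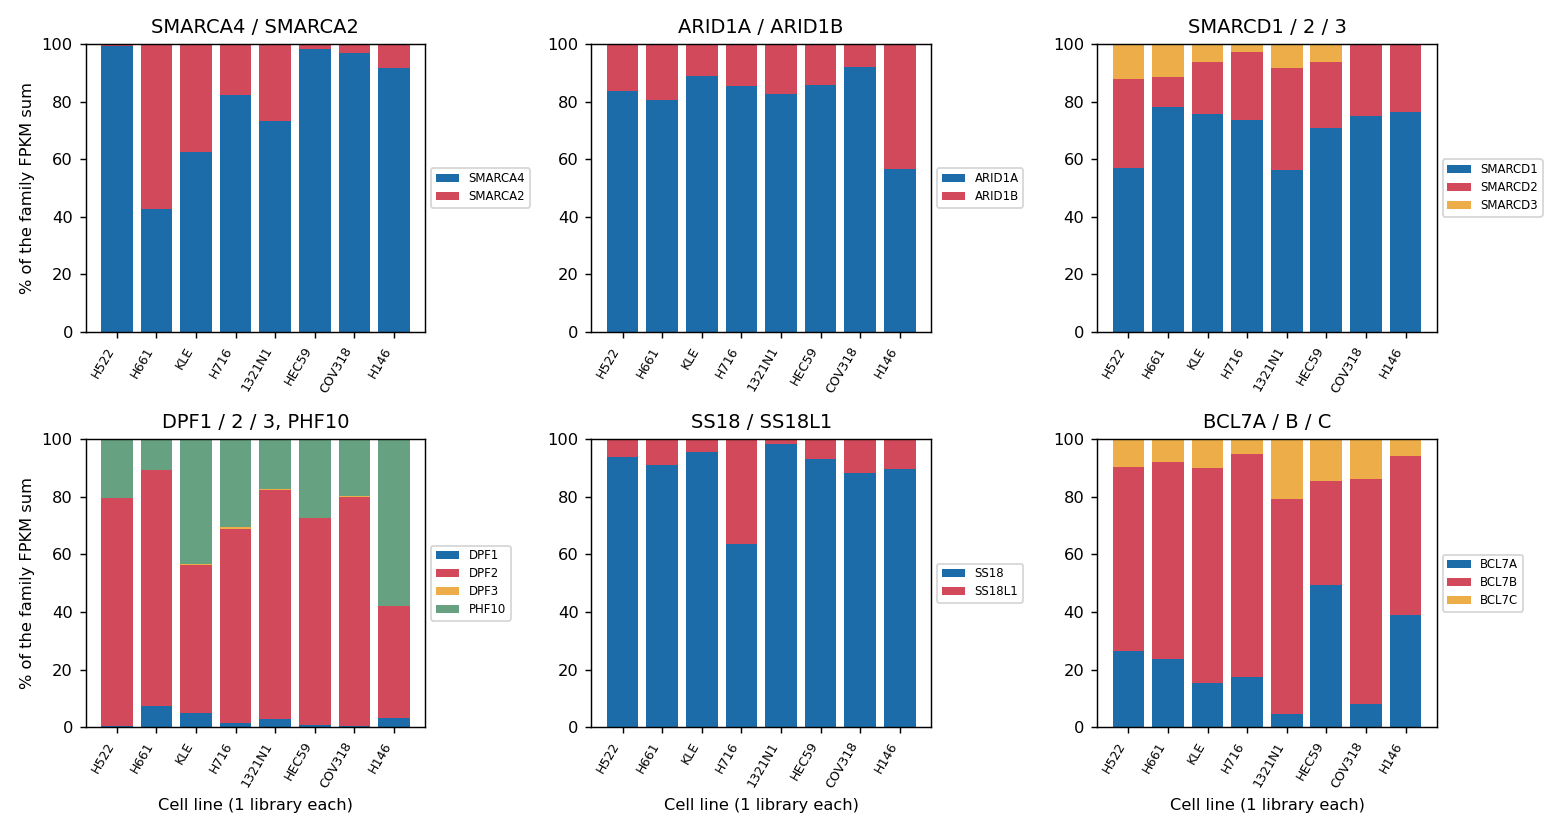
Share of each paralog in the summed FPKM of its family (stacked bars, percent) in each line, for 6 families. SMARCA2 exceeds SMARCA4 in H661, ARID1B reaches 43.4% in H146, SS18L1 36.6% in H716 and BCL7A 49.2% of the BCL7 sum in HEC59.

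Tissue of origin is the grouping that the labels give, and no member passed its test. The 3 lung lines were set against the other 5 and the 2 endometrial lines against the other 6 with limma on log2(FPKM + 1), with Benjamini-Hochberg adjustment over all 15650 identifiers. No member was called for lung lines, beside 0.0256% of identifiers, and at an unadjusted p under 0.05 there was 1 of 28 members, beside 5.94%. That member was ARID1B, at 17.9, 12.6 and 23.7 in H522, H661 and H146, against 5.50 to 11.5 in the other lines. Its log2 difference was 0.90 (SE 0.36, limma adjusted p = 0.818). It was the only member without overlap on the higher side, beside 2.07% of identifiers, and there was none on the lower side, beside 2.23%. SMARCA4 averaged 3.54 ± 2.82 (SD, n = 3) in lung lines and 5.57 ± 0.48 (SD, n = 5) outside lung on the log2 scale, a difference of -2.03 (SE 1.01, limma adjusted p = 0.829). Without H146 its difference was -3.63 (SE 0.46, limma adjusted p = 0.0361). That value compares H522 and H661 with the lines they were already known to differ from, and nothing is read from it.

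No member was called for endometrial lines either, beside 0.00639% of identifiers, and 0 of 28 had an unadjusted p under 0.05, beside 4.82%. DPF2 was without overlap on the lower side, at 21.4 in KLE and 24.6 in HEC59, against 26.5 to 71.0 in the other lines, beside 4.53% of identifiers. Its log2 difference was -0.76 (SE 0.41, limma adjusted p = 0.954). No member was without overlap on the higher side, beside 2.43% of identifiers. The endometrial lines also differed from each other, with SMARCA2 at 17.3 in KLE and 1.25 in HEC59.

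Other remodelling families offered a comparison. In all lines, an FPKM of 1 was reached by 9 of 11 ISWI genes and 19 of 20 CHD and NuRD genes. The same held for 17 of 19 INO80, SRCAP and TIP60 genes and 23 of 25 Polycomb genes, which oppose SWI/SNF at many targets. Among the SWI/SNF genes it held for 22 of 30, a lower share than in each of these lists. The median SD on the log2(FPKM + 1) scale was 0.59, 0.61, 0.51 and 0.58 in these lists, against 0.54 for the SWI/SNF genes. SMARCA1, an ISWI ATPase, was highest in the lines with low SWI/SNF ATPase, at 74.6 in H522 and 49.4 in H661. It stood at 18.4 in H146, 14.9 in H716, 8.43 in KLE, 1.21 in HEC59, 0.458 in COV318 and 0.0641 in 1321N1. SMARCA5, the other ISWI ATPase listed, was at 20.4 in H522 and 20.9 in H661, within the range of 14.3 to 46.6 in the other lines. A link of either gene to the SWI/SNF ATPase level was not tested. CECR2, an ISWI partner, was at 4.61 and CHD5 at 6.30 in H522, both at least 2 (log2) above the median of the other lines. Both were also second highest in H661, at 2.09 each.

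The same difference was passed in single lines by 5 further genes of these lists. Pairs counted as low were 3.41% for ISWI and 0.625% for CHD and NuRD. They were 0.658% for INO80, SRCAP and TIP60 together and 0.5% for Polycomb, beside 2.36% over all identifiers past the filter. Pairs counted as high were 3.41%, 0.625%, 0% and 1% in the same order, beside 4.17%. The ISWI pairs came from 2 genes only. SMARCA1 was low in 1321N1, HEC59 and COV318 and high in H522 and H661, and CECR2 was high in H522. CHD7, a CHD remodeller, was at 1.83 and INO80C, an INO80 subunit, at 2.40 in 1321N1, against at least 11.9 and 5.48 elsewhere. JARID2, a PRC2 cofactor, was at 46.8 in HEC59, with H522 next in order and 2.88 to 7.02 in the rest. In H522, PCGF2 was at 38.2 against 7.01 to 12.3, and PCGF5 at 3.09 against 7.16 to 34.1, both alternative PRC1 subunits. Among the regulators of the neuronal switch, REST alone passed the same difference.

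Genes known from other cells to need SMARCA4 or SMARCA2 were listed as 4 genes. Of their 32 gene-line pairs, 8 were low (25%, beside 2.36% of the pairs of all identifiers) and 5 high (15.6%, beside 4.17%). Those low were CD44 in H522, COV318 and H146, CCND1 in H522 and H146, and CDKN1A in KLE, H716 and COV318. The 4 genes varied widely, with a median SD of 2.65 on the log2(FPKM + 1) scale. A link of these pairs to the ATPase level was not tested. CD44, an adhesion receptor, was at 1.30 in H522 but 50.6 in H661, and was lowest in H146, at 0.431, where SMARCA4 was highest. CCND1, which encodes cyclin D1, was at 19.1 in H522 and 57.8 in H661, against 60.9 in KLE, 112 in 1321N1 and in HEC59, 197 in H716, 342 in COV318 and 0.0996 in H146. CDH1, which encodes E-cadherin, was at 0.178 in H522 and 0.888 in H661, against 102 in KLE, 33.1 in HEC59, 26.1 in H146 and at most 0.588 in H716, 1321N1 and COV318. CDKN1A, a cell cycle inhibitor, was at 26.2 and 16.4 in H522 and H661, within the range of 1.39 to 41.6 in the other lines.

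Some of these values carry an annotation limit, since the sources used here do not state whether reads were assigned by strand. In GENCODE v29, exons of 15 members overlap a gene on the opposite strand. The overlap covers 42.3% of the exon bases of BRD7 (with ADCY7) and 17.7% of those of SMARCB1 (with DERL3), and 2.26% for SMARCA2. SMARCA4 had none on the opposite strand. AC073508.2, on the same strand, shares 19.8% of the exon bases of SMARCE1. SMARCE1, BRD7, BRD9 and PHF10 have pseudogenes named after them in the reference, and their levels are uncertain to the extent that reads were shared with them.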

How the data were processed

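RNA was sequenced in 8 cell lines, 1 library each. The authors deposited 1 table of FPKM values per line, per the file headers. The submitters' processing notes name CASAVA 1.4, TopHat2 2.0.8 and SAMtools 1.0 with build GRCh37. The FPKM program, annotation release and strand setting were not given in the sources used here. Because FPKM keeps no read totals, there are no counting intervals, and relative depth was estimated from ratios between libraries of their lowest values.

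All tests used the log2(FPKM + 1) scale. It understates changes of low genes. For a repeated symbol (BCL7B) the identifier with the highest mean was used. The filter kept identifiers for which 2 lines or more reached an FPKM of 1. The two-sided test was limma 3.58.1 (R 4.3.3) with a mean-dependent prior and an adjusted p threshold of 0.05, tested on simulated data. Lines were grouped by labelled tissue, and lines of a tissue are different tumours. The other lines of each test came from several tissues. The p-values therefore rest on a spread that mixes differences between tumours with differences between tissues. Members and lists were chosen with earlier results of these data known. Every member is accounted for, and genes of related lists were named where a line differed by 2 (log2) from the median of the other 7. Descriptions used Python 3.11.15. Alternatives covered pseudocounts, filters, scalings, thresholds and leaving out lines. Protein sequences of paralogs were not used here. For the neuroendocrine list, 1 further marker is not reported here. The promoter sequences are RefSeq's, and GENCODE v29 on GRCh38 was used for overlaps and copies, without its coordinates.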

Additional observations from a re-analysis of the deposited data

Results flagged for a closer look

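A line stood apart from the other 7 in 3 of the 30 genes, by a gap to its nearest neighbour that, as a share of the whole range of log2(FPKM + 1), exceeded Dixon's critical value for 8 values. Chance flags about 1 in 20 such sets of values, and 8.12% of all identifiers past the filter were flagged. BCL11A in H716 had a gap of 0.718 of its range, at an FPKM of 27.2. SS18L1 in H716 had a gap of 0.555, at 7.12. BCL11B in KLE had a gap of 0.777, but at an FPKM of 0.453 it did not pass the filter on low values. ACTL6B in H146 lay just under the limit, at 0.509. The 8 lines come from different tissues and are not replicates of a group, and for SMARCA4, low in both H661 and H522, the gap was 0.192.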

How the results depend on the processing

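The 8 single-line differences were computed again under 13 alternatives each, 104 in all. Dropping the filter and summing identifiers could not change these differences, so 2 of the 13 were fixed in advance. Of the 104, 86 stayed past 2 on the log2 scale, and all kept their sign. Each value was among the 2 highest or 2 lowest of its gene. Other pseudocounts and leaving out a line therefore could not change its sign. Only upper-quartile scaling and quantile normalization could have done so, and nothing is read from the kept sign. SMARCA4 stayed past it under all 13 in H661 (-4.72 to -2.96) and in H522 (-3.37 to -2.46), as did BCL11A in H716 (2.63 to 6.51). SMARCA2 in H522 (-6.05 to -1.41) and ACTL6B in H146 (0.90 to 4.86) fell under it with a pseudocount of 5. SMARCA2 in HEC59 stayed past it under 7 of 13, and SMARCA2 in KLE and in 1321N1 under 8 each. The number of low pairs was 12 with a pseudocount of 0.1, 2 with a pseudocount of 5, 14 at a difference of 1, and 2 to 4 when single lines were left out (2 without H522, which held 2 of the 4). The number of high pairs was 9 with a pseudocount of 0.1, 1 with a pseudocount of 5, 22 at a difference of 1, 1 at a difference of 3, and 2 to 3 when single lines were left out (2 without H522, H661, HEC59 or COV318). Members at the detection level in all lines numbered 23 at an FPKM of 0.5 and 15 at an FPKM of 5.

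Over all identifiers, the number called for lung lines was 11 with a pseudocount of 0.1, 2 with a pseudocount of 5, 1 with no filter, 9 after quantile normalization, 2 with the set of lines with like read steps as a term (an alternative chosen after seeing the data), and 1 to 16 when single lines were left out (1 without COV318, 2 without 1321N1 or HEC59, 8 without H661, 13 without H716 and 16 without H146). For endometrial lines it was 4 with a pseudocount of 5, 20 with no filter, and 1 to 30 when single lines were left out (2 without HEC59, 4 without KLE, 5 without H146 and 30 without COV318). Without KLE or HEC59 the lone endometrial line is assumed to vary like the others. Members called for lung lines numbered 0 to 1 when lines were left out, the call being SMARCA4 without H146, and for endometrial lines 0 throughout. With upper-quartile scaling the median of all single-line differences was 0.06 in H146 (-0.13 unscaled), 0.04 in HEC59 (-0.11), 0.02 in 1321N1 (0.17), 0 in H522 (0.11) and -0.13 in H716 (-0.04), and that of the endometrial differences 0.0046 (-0.11). The causes of these changes were not tested. No paired analysis was possible because the replicate numbers are in accession order.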
